A study of Mus musculus with 202 samples.

Results

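Within the E-cadherin-negative (Ecad-) fraction of a mouse pancreatic ductal adenocarcinoma line, 79 single cells were compared by their level of Ddit3, the gene of the stress transcription factor CHOP. A cell was CHOP-high at a Ddit3 value of 8 or more on the log2(TPM + 1) scale, a level of at least 255 TPM (transcripts per 1000000), and CHOP-low under 6, a level under 63 TPM. This gave 49 CHOP-high and 30 CHOP-low cells of 97 Ecad- cells, and the 18 cells between the thresholds were left out. Ddit3 itself chose the sides, so its values are a description and support nothing.

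The series holds 202 single-cell libraries of 1 line, labelled KPC (a genetically engineered mouse model of pancreatic cancer) and male. The line came from a liver metastasis. Pairs of libraries that correlated above 0.97 were each averaged and counted as 1 cell, which gives 197 cells. Whether each pair is 1 cell is not given in the sources used here. Cells at passages 4 to 6 were grown in DMEM with 10% FBS, trypsinised, stained for E-cadherin, and sorted. They count here as 100 Ecad+ and 97 Ecad- cells. The labels name no stress agent and no separate cultures or animals, and whether the line is a clone is not given in the sources used here. CHOP-high and CHOP-low cells therefore share line, genotype, medium and sort gate. Since no separate cultures are named, each sorted fraction was treated as 1 sample, so cells are not replicates of a condition, no test was made, and every spread below is a spread between cells.

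CHOP sits at the end of the integrated stress response. Kinases that sense unfolded protein in the endoplasmic reticulum (ER), lack of amino acids, haem shortage or viral RNA phosphorylate the translation factor eIF2alpha, which slows most translation but favours that of ATF4. ATF4 turns on genes of amino acid supply and Ddit3, and CHOP with ATF4 turns on genes that restore translation or promote cell death; the IRE1 and ATF6 arms of ER stress mainly raise ER chaperones and degradation of misfolded protein. The title of the study names ER stress and immune resistance in latent metastases, and the split asks what else differs between cells with much and little Ddit3 within the Ecad- fraction.

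Ddit3 (ENSMUSG00000025408, mm10 chr10:127290774-127296288, plus strand) ranged from 264 to 4418 TPM with a median of 643 TPM in CHOP-high cells. In CHOP-low cells it ranged from 0 to 59.7 TPM with a median of 14.7 TPM, and 20 of the 30 cells had a value above 0. The cells nearest the lower threshold had log2 values of 5.77, 5.88 and 5.92 inside it and 6.10, 6.24 and 6.35 outside. Those nearest the upper threshold had 8.05, 8.25 and 8.31 inside and 7.72, 7.73 and 7.81 outside. Ddit3 is thus graded over the fraction, and the gap between the sides is made by the rule.

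Mitochondrial RNA differed with the split. The 13 mitochondrially encoded mRNAs took a median of 0.184% of TPM in CHOP-high cells (quartiles 0.0142% and 4.08%, highest 36.2%). In CHOP-low cells they took a median of 28.1% (lowest 1.75%, quartiles 14.4% and 42.2%, highest 66.4%). A share under 1% was seen in 32 of 49 CHOP-high cells (65.3%, exact Clopper-Pearson 95% interval 50.4% to 78.3%) and in 0 of 30 CHOP-low cells (upper limit 11.6%); both figures assume independent cells and include counting error alone. Of the cells between the thresholds 8 of 18 had such a share, all 8 among the 10 of library set 3 (the sets are described below), and of the Ecad+ cells 1 of 100. Without mt-Atp8, which is short and led the mitochondrial rows, the medians were 0.0421% and 6.19%. The lowest CHOP-low cell then had 0.574%, so the count of 0 of 30 under 1% holds only with mt-Atp8 included. CHOP-high cells with a share of at least 1% then had a lowest value of 0.311% and a lower quartile of 0.560%. All classes by share used here include mt-Atp8.

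The share splits the CHOP-high side, since the other 17 CHOP-high cells had a median share of 19.9% and ranged from 1.44% to 36.2%. Across the 97 cells the Spearman correlation of Ddit3 with the share was -0.63, across the 57 cells with a share of at least 1% it was -0.35, and across the 100 Ecad+ cells it was -0.35. These are descriptions across cells of 1 sample, and Ddit3 and the share come from the same TPM total. Below, most list shifts and many gene ratios, though not all, are therefore also given among cells with a share of at least 1% (17 CHOP-high, 30 CHOP-low) and, chosen after seeing the data, of at least 20% (8 and 20). In that last stratum the median shares were 30.9% and 38.8%. All 8 of its CHOP-high cells are in library set 1, while its CHOP-low cells number 9, 7 and 4 in sets 1 to 3, so side and set cannot be fully told apart there. Single cells also weigh more in it. When each cell was left out in turn, the 2-fold call changed for 2 of 90 genes named in the text in all cells, for 12 at a share of at least 1% and for 21 at 20%, and the sign for 3, 2 and 10.

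**Figure D1:**
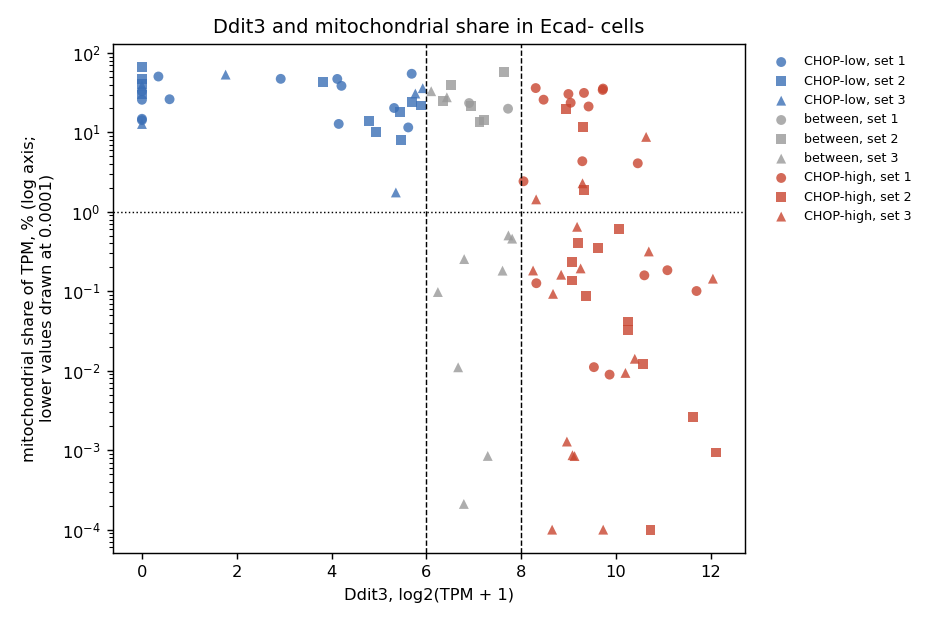
Each point is an Ecad- cell, with Ddit3 as log2(TPM + 1) on the x axis and the share of TPM on mitochondrial rows, in percent on a log axis, on the y axis; colours give the side, symbols the library set, dashed lines the thresholds of 6 and 8, and the dotted line a share of 1%. No CHOP-low cell lies under 1%, while 32 of 49 CHOP-high cells and 8 of 18 between do; these 8 are all in library set 3.

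The libraries carry 1 of 3 name suffixes, treated as library sets. CHOP-high cells numbered 17, 15 and 17 in sets 1 to 3 and CHOP-low cells 13, 11 and 6. Cells with a share under 1% made up 6, 12 and 14 of those CHOP-high cells. Median shares were 4.34%, 0.137% and 0.144% on the CHOP-high side and 26.2%, 24.3% and 33.4% on the CHOP-low side, so the direction was the same in each set. Read depth is unknown, because TPM keeps none; genes above 0 had a median of 8790 in CHOP-high and 8704.5 in CHOP-low cells, and the CHOP-low side holds a cell with 4168.

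Few listed markers of other cell types passed the floor. Of 21 immune markers measured, 3 passed the floor used below (Cd68, Cd74 and S100a8), and the defining genes Ptprc and Tyrobp were at 0 in all 79 cells. The summed level of the immune list ranged from 0 to 385 TPM (median 30.2) in CHOP-high and from 0 to 83.5 TPM (median 0.690) in CHOP-low cells. Most of it was Cd68, a lysosomal membrane protein, with a mean of 37.7 against 9.63 TPM but a median of 0 on both sides. Cd74 and S100a8 also had medians of 0 on both sides. Their log2 ratios, as defined below, were 3.05 (2.40 without 1 CHOP-high cell) and 0.90 (1.76 without 1 CHOP-low cell). No fibroblast, endothelial, or acinar and endocrine marker passed, and of 14 hepatocyte markers measured only Apob did. The summed hepatocyte list ranged from 0 to 116 TPM (median 5.21) in CHOP-high and from 2.12 to 423 TPM (median 17.6) in CHOP-low cells. The part of these markers in the results was not tested. Keratin genes of ductal cells were present, with Krt18, chosen after its values were seen, at a mean of 1210.0 TPM in CHOP-high and 1111 TPM in CHOP-low cells. Krt19, another ductal keratin, was lower in CHOP-high cells, with medians of 48.9 and 368 TPM. Of 26 listed ductal and pancreatic lineage genes 12 passed, with 0 at least 2-fold higher and 4 at least 2-fold lower in CHOP-high cells. Over all genes compared 4.19% were at least 2-fold lower. The list median less that of all genes was -1.13, and -0.84 and -0.36 at shares of at least 1% and 20%. The summed list had a median of 1343 TPM in CHOP-high and 4534 TPM in CHOP-low cells. In CHOP-high cells with a share of at least 1% that median was 7656 TPM.

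The difference of a gene was taken as log2((mean TPM in CHOP-high + 1)/(mean TPM in CHOP-low + 1)), which understates the difference of low genes. Only genes that averaged 5 TPM or more over both sides and exceeded 0 in 10% or more of the cells were compared (the floor). The floor pools the cells of both sides, and CHOP-high cells are more numerous. A gene present on 1 side alone therefore passes more easily if that side is CHOP-high, which can tilt the counts toward higher genes. Of 7375 genes above the floor 2001 (27.1%) were at least 2-fold higher in CHOP-high cells and 309 (4.19%) at least 2-fold lower. These are called higher and lower here. With each cell rescaled without mitochondrial and ribosomal protein genes the counts were 1021 (13.8%) and 564 (7.65%). The median over all genes was 0.56, and 0.16 after that rescaling, so gene list medians below are given relative to the all-gene median of the same cells. With a share of at least 1%, 1365 genes (18.5%) were higher and 294 (3.99%) lower. With a share of at least 20% the counts were 1532 (20.8%) and 416 (5.64%). Counts of higher and lower genes in the lists below stand beside these shares of all genes.

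The effectors of CHOP and ATF4 outside amino acid supply were the list with the largest upward shift. Of 27 listed genes 19 passed the floor, and 17 of them were higher in CHOP-high cells and 0 lower; the list median stood 2.15 log2 units above that of all genes. In the cells with a share of at least 1% the shift was 2.25 with 18 genes higher, and at a share of at least 20% it was 2.46 with 18 higher. The list was also above the all-gene median in each library set, by 1.92, 1.28 and 2.20. These genes were chosen as known companions of Ddit3, so their direction beside a split on Ddit3 is not independent evidence.

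Trib3, a pseudokinase that restrains AKT and ATF4, had values from 0 to 281 TPM with a median of 48.9 TPM in CHOP-high cells and from 0 to 45.7 TPM with a median of 0 in CHOP-low cells. It was above 0 in 39 of 49 and 6 of 30 cells. The ranges overlapped, while 25 CHOP-high cells exceeded the highest CHOP-low cell; the log2 ratio was 3.59, and 3.53 and 3.51 in the strata with shares of at least 1% and 20% (4.76 in the last without 1 CHOP-low cell).

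Chac1, an enzyme that breaks down glutathione, ranged from 0 to 172 TPM (median 25.4 TPM) in CHOP-high and from 0 to 33.7 TPM (median 0) in CHOP-low cells. Its log2 ratio was 3.33, with 3.88 at a share of at least 1% and 4.71 at 20% (5.49 without 1 CHOP-low cell). Its median was 45.0 TPM in CHOP-high cells with a share of at least 1% and 16.8 TPM in those under 1%.

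Ndrg1, a growth-restraining protein also known from hypoxia, went from 0 to 1032 TPM (median 120 TPM) in CHOP-high cells and from 0 to 64.9 TPM (median 0) in CHOP-low cells. Of the CHOP-high cells 33 lay above every CHOP-low cell, and the log2 ratio was 4.44, with 4.29 and 4.10 in the 2 strata (5.03 in the last without 1 CHOP-low cell). Pmaip1, which encodes the death-promoting BH3 protein NOXA, had a median of 46.2 TPM (0.0524 to 485 TPM) against 0.258 TPM (0 to 17.1 TPM), and 35 CHOP-high cells exceeded all CHOP-low cells. Its log2 ratio went from 4.01 in all cells to 3.26 and 2.66 in the 2 strata. A second BH3 gene, Bcl2l11 (BIM), had a ratio of 2.55, but at low levels, with medians of 3.68 and 0.0623 TPM. The BCL2 family as a list did not stand apart from other genes. Of 8 genes above the floor 3 were higher and 0 lower, against 27.1% and 4.19% of all genes. The all-gene median had 4 of them above and 4 below, and the list's shift was 0.0037, -0.03 and -0.13 in all cells and the 2 strata.

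Sqstm1, the p62 receptor that delivers cargo to autophagy, separated the sides almost fully. CHOP-high cells had 246 to 6273 TPM (median 1086 TPM) and CHOP-low cells 0.696 to 569 TPM (median 230 TPM), and 45 of 49 CHOP-high cells lay above the highest CHOP-low cell. The log2 ratio was 2.71, and 2.58 and 2.53 in the strata. Ppp1r15a (GADD34), the phosphatase subunit that ends the eIF2alpha signal, had a median of 223 TPM (32.0 to 2711 TPM) against 30.0 TPM (0 to 1383 TPM). All 49 CHOP-high cells were above the CHOP-low median, while a CHOP-low cell, the one with 4168 genes above 0, reached 1383 TPM. The ratio was 1.84, 0.97 and 1.57 in all cells and the 2 strata, and 2.75 and 1.88 in the first pair without that cell, which is not in the last stratum.

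**Figure D2:**
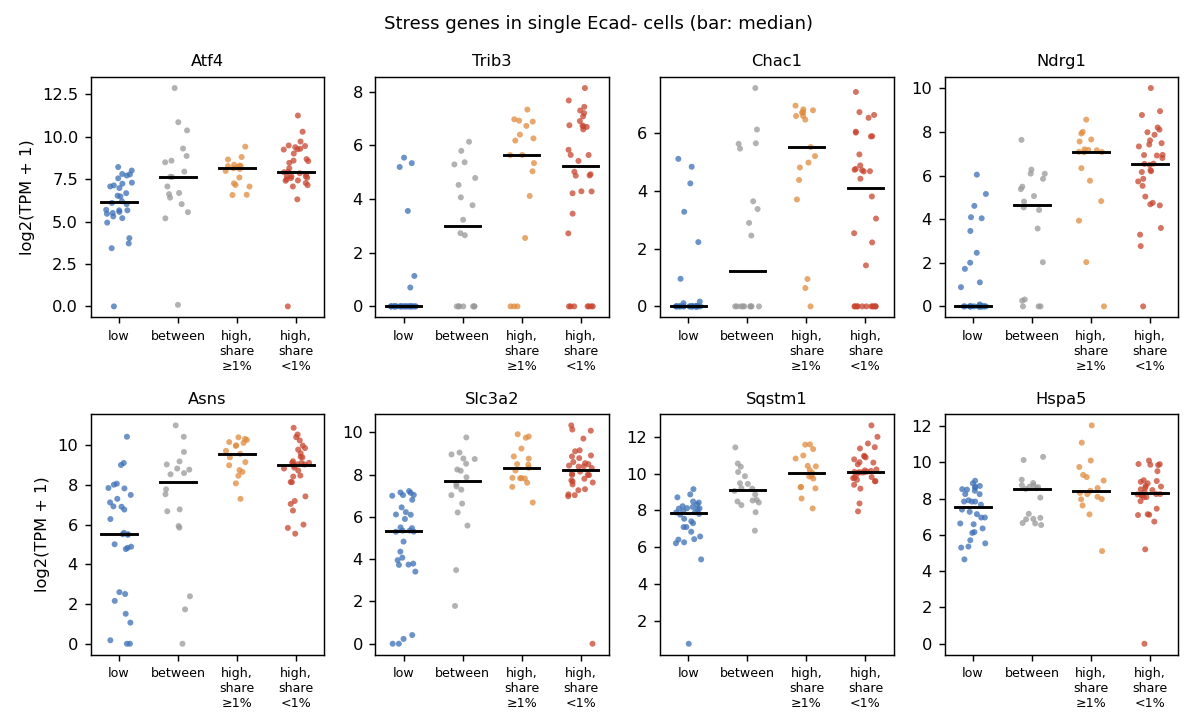
Each panel shows 1 gene as log2(TPM + 1) on the y axis in single Ecad- cells, grouped on the x axis into CHOP-low (low), between, and CHOP-high cells with a mitochondrial share of at least or under 1%; points are cells and bars medians. Trib3, Chac1 and Ndrg1 have medians of 0 in CHOP-low cells and of 16.8 to 135 TPM in both CHOP-high groups, while Hspa5 overlaps widely.

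Upstream of these genes the list of stress transcription factors (8 of 11 above the floor) had 6 genes higher and 0 lower, with a shift of 0.91, 1.05 and 1.01 in all cells and the strata of 1% and 20%. Atf4 (chr15:80255184-80257541, plus strand) had a median of 274 TPM (0 to 2438 TPM) in CHOP-high and of 69.9 TPM (0 to 296 TPM) in CHOP-low cells. The ranges overlapped, yet 48 of 49 CHOP-high cells were above the CHOP-low median; the log2 ratio was 1.90, 1.46 and 1.49. Nupr1, a small stress-responsive chromatin protein, had a median of 1181 TPM against 121 TPM and a ratio of 2.45, 2.67 and 2.53, although set 3 gave 0.90, and 1.84 without the CHOP-low cell with 4168 genes above 0. Atf3, a repressor that acts with CHOP, was above 0 in 45 of 49 and 17 of 30 cells with medians of 61.0 and 0.151 TPM; its ratio was 1.59 in all cells, 1.52 at a share of at least 1%, and -0.05 at 20%. In that last stratum it was 0.63 without 1 CHOP-low cell of 320 TPM, and the medians were 36.5 and 0.209 TPM. Cebpb and Cebpg, the C/EBP partners of these factors, had ratios of 1.42 and 1.47. Atf5 was under 1 TPM in the mean of both sides.

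The eIF2alpha kinases and phosphatase parts did not follow this pattern as a list: of 9 above the floor 2 were higher, Ppp1r15a and Eif2s1 (eIF2alpha itself, 1.22), and 0 lower, with a shift of -0.43. At a share of at least 1% 0 were higher and 1 lower, with a shift of -0.07. At 20% 1 was higher and 0 lower, with a shift of -0.19. Eif2ak1, the haem-sensing kinase, had a ratio of 0.78.

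Genes of amino acid supply differed as well. Of 17 genes of amino acid and one-carbon synthesis above the floor 11 were higher and 0 lower, with a shift of 0.60 in all cells, 1.16 at a share of at least 1% and 1.10 at 20%. By library set the shift was 1.19, -0.02 and 1.87, so set 2 did not show it. Asns (asparagine synthetase) had a median of 552 TPM (45.7 to 1884 TPM) in CHOP-high and of 45.9 TPM (0 to 1380 TPM) in CHOP-low cells. The ranges overlapped, but 48 of 49 CHOP-high cells were above the CHOP-low median, and the ratio was 2.06, 2.31 and 3.06. Psph, the last step of serine synthesis, had a ratio of 1.99, 2.53 and 3.11, and Mthfd2, a mitochondrial folate enzyme, one of 1.76, 1.86 and 2.31. Got1, which exchanges aspartate and glutamate, had medians of 127 and 23.7 TPM and a ratio of 2.14, 1.68 and 1.34.

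Among amino acid transporters (11 of 17 above the floor) 7 were higher and 0 lower, with shifts of 0.77, 0.64 and 0.65. Slc3a2, the shared heavy chain of several exchangers, ranged from 0 to 1284 TPM (median 317 TPM) against 0 to 148 TPM (median 39.8 TPM). It was above every CHOP-low cell in 44 of 49 CHOP-high cells, and its ratio was 2.81, 2.86 and 3.34, with 2.89, 2.47 and 2.98 in sets 1 to 3. Slc7a11, the cystine importer that pairs with it, was much lower, with medians of 11.0 and 0.849 TPM and a ratio of 2.08, 2.43 and 2.24. The aminoacyl-tRNA synthetases, which charge tRNAs and are known ATF4 targets, had all 20 members above the floor; 10 were higher and 0 lower in all cells, and 13 higher at a share of at least 1%. Their shift was 0.50, 1.07 and 1.47, and -0.36 within set 2. Nars had medians of 376 and 67.7 TPM and Sars of 270 and 98.3 TPM.

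ER chaperones as a list did not stand apart from other genes. Of 25 above the floor 5 were higher and 0 lower, with a shift of -0.15 in all cells, 0.09 at a share of at least 1% and 0.37 at 20%. Hspa5 (BiP), the main ER chaperone, had a median of 330 TPM (0 to 4207 TPM) in CHOP-high and 185 TPM (24.1 to 506 TPM) in CHOP-low cells, and 9 CHOP-high cells were below the CHOP-low median. Its ratio was 1.31, 1.81 and 1.79 (1.19 in the last without 1 CHOP-high cell), whereas Hsp90b1 and Calr, named after their values were seen, had ratios of -0.04 and 0.42. Dnajb9, an HSP40 partner of BiP, had a ratio of 1.96, 1.57 and 1.08 (0.89 in the last without 1 CHOP-high cell). Xbp1, the target of the IRE1 arm, had medians of 48.2 and 24.4 TPM and a ratio of 0.89, which was -0.51 in set 2; TPM per gene does not show splicing of its mRNA.

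Degradation of misfolded ER protein (18 genes above the floor) had 7 higher and 0 lower, with a shift of 0.27, 0.50 and 0.48. The shares over all genes were 27.1% higher and 4.19% lower. Derl1, a channel component, had medians of 41.5 and 11.2 TPM and a ratio of 2.06. Ube2g2, the ubiquitin-conjugating enzyme of this pathway, had medians of 15.0 and 0.0329 TPM and a ratio of 2.75. Herpud1, which scaffolds the complex, had a ratio of 1.68, 2.03 and 2.79 (2.12 in the last without 1 CHOP-high cell). The ratios of these 3 genes were above 0 in each library set.

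The sequences around the starts of these genes were searched in the RefSeq promoter table (GRCm38.p6, 250 bases before to 50 after each start) for 2 motifs on both strands: the C/EBP-ATF composite element bound by ATF4 and CHOP dimers, with the letters TGATGNAA, and the ER stress element. The composite letters occur in 1219 of 27025 genes (4.51%) and in 2.64% of 5412 genes above the floor. They occur in 3 of 6 stress transcription factors with a window in the table, 4 of 12 effectors, 3 of 13 synthesis genes, 2 of 7 transporters and 5 of 12 tRNA synthetases, against 2 of 12 genes of ER-associated degradation, 2 of 23 ER chaperones, 1 of 20 lysosomal genes and 1 of 11 subunits of the vacuolar proton pump. The ER stress element letters occur in 37 genes of the whole table (0.137%), in 7 of 23 ER chaperones and in 0 of 12 effectors. A match is a description of letters only. The window of Ddit3 held neither motif, which says only that these letters are not in that window.
Matches are shown for genes described above, to let the composite letters of the stress genes be set beside the ER stress element of Hspa5; capitals mark the match, the other bases flank it, and the strand is that of the gene.
Chac1: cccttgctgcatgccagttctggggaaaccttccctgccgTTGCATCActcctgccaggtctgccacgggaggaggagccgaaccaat
Atf3: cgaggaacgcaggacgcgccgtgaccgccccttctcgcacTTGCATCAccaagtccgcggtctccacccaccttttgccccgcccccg
Herpud1: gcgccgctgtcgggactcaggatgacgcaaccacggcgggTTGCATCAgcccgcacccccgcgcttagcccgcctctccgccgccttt
Trib3: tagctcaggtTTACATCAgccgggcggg
Nupr1: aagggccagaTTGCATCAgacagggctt
Asns: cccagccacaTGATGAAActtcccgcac
Slc7a11: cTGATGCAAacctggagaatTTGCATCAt
Hspa5: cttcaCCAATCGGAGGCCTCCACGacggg

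The stretches lie at chr2:119351009-119351096 (Chac1, plus strand), chr1:191183396-191183483 (Atf3, minus), chr8:94386277-94386364 (Herpud1, plus), chr2:152344029-152344056 (Trib3, minus), chr7:126625563-126625590 (Nupr1, minus), chr6:7693215-7693242 (Asns, minus), chr3:50443652-50443680 (Slc7a11, minus) and chr2:34772020-34772048 (Hspa5, plus). The Chac1, Herpud1 and Slc7a11 stretches touch no exon in GENCODE M21, the Atf3 stretch lies within that gene but in no exon, and the other stretches overlap an exon of some transcript of their gene. In 5 of the 7 genes shown with the composite letters a match reads TTGCATCA, which is the motif on the opposite strand. Trib3 has TTACATCA, 14 bases after its start, and Asns has TGATGAAA, 23 bases before it. Slc7a11 holds 2 copies in opposite directions within 29 bases.

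The genes of lysosomes were higher in CHOP-high cells, and more so in the cells with little mitochondrial RNA. For the vacuolar proton pump (V-ATPase), which acidifies lysosomes, all 16 subunit genes passed the floor; 15 were higher and 0 lower, with a shift of 1.43 in all cells, 1.00 at a share of at least 1% and 0.52 at 20%. Atp6v1d had a median of 357 TPM (0 to 1336 TPM) against 44.3 TPM (0 to 169.5 TPM), with 37 CHOP-high cells above all CHOP-low cells and a ratio of 2.91, 2.33 and 1.82. The mean log2 level over the pump genes, per cell, had a median of 8.12 in CHOP-high cells with a share under 1%, 7.14 in those with a share of at least 1%, 5.80 in CHOP-low cells and 5.98 in Ecad+ cells. For the CHOP and ATF4 effectors the same medians were 4.91, 5.08, 2.19 and 2.41, so that those 2 groups of CHOP-high cells were close for the effectors and apart for the pump. Of the CHOP-high cells, those with a share under 1% number 6, 12 and 14 in library sets 1 to 3, and the others 11, 3 and 3. Share and set therefore cannot be fully told apart between them. The levels are neither centred on all genes nor rescaled, and they share the TPM total with the mitochondrial rows. Differences between these groups of cells were not tested.

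Of 27 lysosomal genes above the floor 22 were higher and 0 lower, with shifts of 1.07, 0.85 and 0.67. Hexa, a glycosidase subunit, had a median of 76.4 TPM (0 to 1186 TPM) and was above 0 in 42 of 49 CHOP-high cells, against a median of 0 (0 to 102 TPM) and 12 of 30 CHOP-low cells. Its ratio of 3.58 was 2.91 at a share of at least 1% (2.02 without 1 CHOP-high cell) and 0.54 at 20%, where leaving out 1 CHOP-high cell of 122 TPM gave -0.99. Lamp2, a membrane protein of lysosomes, had medians of 543 and 112 TPM and a ratio of 2.37, 1.98 and 1.33. Grn (progranulin) had a ratio of 2.70, 2.04 and 1.01 (0.56 in the last without 1 CHOP-high cell). Among autophagy genes (20 above the floor) 16 were higher and 0 lower, with shifts of 0.89, 0.61 and 0.63. Map1lc3b, the LC3 protein of autophagosome membranes, had medians of 323 and 72.3 TPM. Its ratio was 1.96, and 1.00 at a share of at least 1%.

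Nutrient-sensing genes on the lysosome surface (13 above the floor) had 8 higher and 0 lower with a shift of 0.59, 0.46 and 0.30. Among all genes compared 27.1% were higher and 4.19% lower. Rragd, a RAG GTPase that recruits mTORC1, was above 0 in 26 of 49 CHOP-high cells with values up to 84.7 TPM, and no CHOP-low cell had more than 0.0850 TPM. Fnip1, a partner of folliculin, had medians of 28.2 and 2.51 TPM; its ratio was 2.53 in all cells, 1.79 at a share of at least 1% and -0.42 at 20% (-1.14 without 1 CHOP-high cell).

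**Figure D3:**
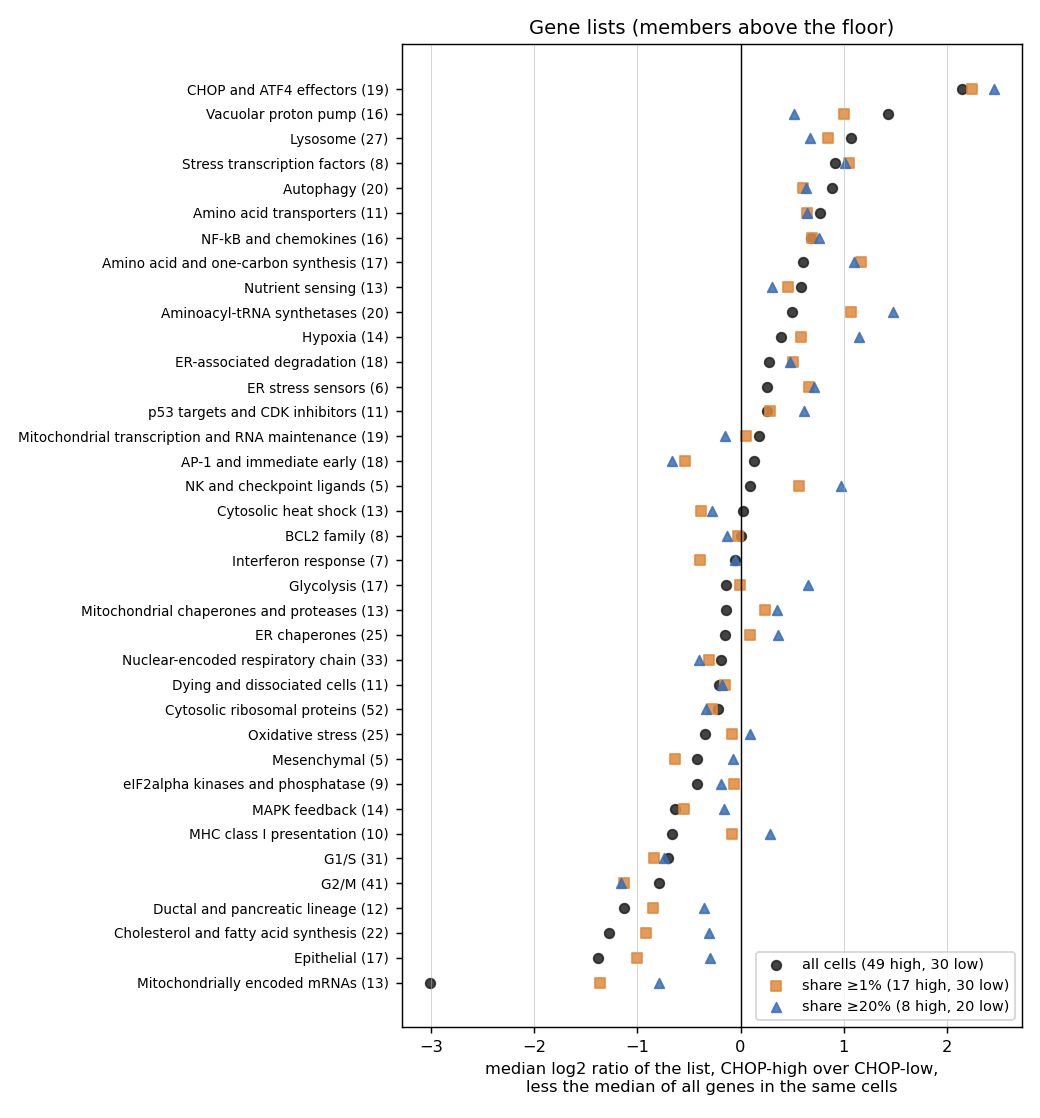
The x axis gives the median log2 ratio of each gene list, CHOP-high over CHOP-low, less that of all genes in the same cells; rows are lists with the number of members above the floor, and symbols give all cells and the strata with shares of at least 1% and 20%. Effectors of CHOP and ATF4 stay at 2.15 to 2.46, the proton pump goes from 1.43 to 0.52, and the epithelial list from -1.38 to -0.30; the CHOP-high cells of the 20% stratum are all of library set 1.

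**Figure D4:**
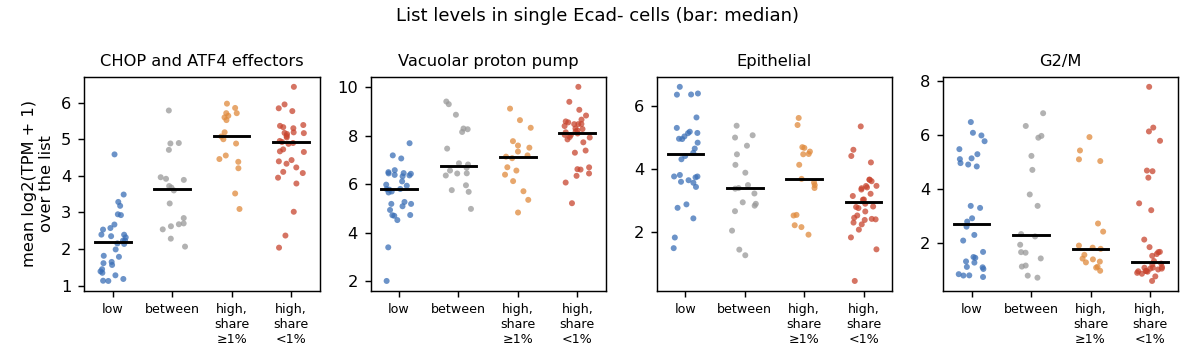
Each panel shows the mean log2(TPM + 1) over a gene list on the y axis for single Ecad- cells in the groups low, between, and CHOP-high with a share of at least or under 1% on the x axis; bars are medians. Effector medians are 2.19, 3.64, 5.08 and 4.91 in that order, and proton pump medians 5.80, 6.75, 7.14 and 8.12.

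Genes of epithelial identity were lower in CHOP-high cells although both sides passed the same E-cadherin-negative gate. Of 17 above the floor 0 were higher and 7 lower, with a shift of -1.38 in all cells, -0.999 at a share of at least 1% and -0.30 at 20%. Cdh1, the gene of the sorted protein, had a median of 11.7 TPM (0 to 58.7 TPM) in CHOP-high and of 23.5 TPM (0 to 116 TPM) in CHOP-low cells, a ratio of -0.83 with wide overlap. Epcam, an epithelial adhesion protein, was above 0 in 7 of 49 cells (highest 23.4 TPM) against 13 of 30 (highest 260 TPM), with a ratio of -4.02, -3.72 and -5.52 (-4.73 in the second without 1 CHOP-high cell). Krt19, a ductal keratin, had medians of 48.9 and 368 TPM, and 44 of 49 CHOP-high cells were below the CHOP-low median. Its ratio was -1.75, -0.66 and 0.17 (-0.23 in the last without 1 CHOP-high cell), and its median was 162 TPM in CHOP-high cells with a share of at least 1% and 20.5 TPM in those under 1%. The epithelial list level per cell had a median of 3.22 in CHOP-high, 4.46 in CHOP-low and 5.53 in CHOP-low Ecad+ cells.

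Mesenchymal genes did not go the other way as a group: of 29 listed genes 5 passed the floor, 1 was higher and 0 lower. That gene was Snai2 (SLUG), a repressor of E-cadherin, with a median of 23.3 TPM (0 to 181 TPM) and 43 of 49 cells above 0, against a median of 0 (0 to 35.1 TPM) and 9 of 30. Its ratio was 3.56, 3.59 and 3.00 (2.34 in the last without 1 CHOP-high cell), and 3.49, 2.55 and 5.95 in sets 1 to 3 (3.40 in set 2 without 1 cell). Vim, the mesenchymal filament, had medians of 155 and 285 TPM and a ratio of -0.50.

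The genes of cholesterol and fatty acid synthesis (22 above the floor) had 1 higher and 7 lower, with a shift of -1.28, -0.92 and -0.30. Nsdhl, a sterol enzyme, had medians of 8.94 and 43.4 TPM and a ratio of -2.22, -2.19 and -1.38 (-1.97 in the last without 1 CHOP-high cell). Scd2, a fatty acid desaturase, had medians of 2.86 and 58.4 TPM, with 44 of 49 CHOP-high cells below the CHOP-low median, and a ratio of -1.64, -0.89 and -0.56.

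Cell cycle genes were spread widely on both sides. For the lists here the shares over all genes were 27.1% higher and 4.19% lower, and 18.5% and 3.99% at a share of at least 1%. Of 41 G2/M genes above the floor 3 were higher and 9 lower in all cells, and 2 higher and 15 lower at a share of at least 1%, with shifts of -0.79, -1.13 and -1.16. Of 31 G1/S genes 4 were higher and 1 lower in all cells, and 0 higher and 4 lower at a share of at least 1%, with shifts of -0.70, -0.84 and -0.75. Ccnb2, a mitotic cyclin, was above 0 in 18 of 49 CHOP-high and 21 of 30 CHOP-low cells, with a ratio of -2.10. Mki67 and Ube2c, other markers of dividing cells, had ratios of 0.03 and -0.09, although their medians were 0 and 0.441 TPM against 1.56 and 19.6 TPM, and a few CHOP-high cells had high values (up to 81.4 and 742 TPM). Leaving out 1 cell took these ratios to -0.52 and 0.26. The G2/M level per cell had a median of 1.53 in CHOP-high, 2.71 in CHOP-low and 5.88 in CHOP-low Ecad+ cells, so the CHOP-low Ecad- median lay nearer to the CHOP-high one. Single CHOP-low Ecad- cells were spread, with quartiles of 1.29 and 5.08, against 1.09 and 3.23 in CHOP-high cells. Genes above 0 had a median of 10366 in CHOP-low Ecad+ cells, against 8704.5 in CHOP-low and 8790 in CHOP-high Ecad- cells. Of 11 p53 targets and CDK inhibitors above the floor 5 were higher and 1 lower, and 5 higher and 3 lower at a share of at least 1%, with shifts of 0.25, 0.29 and 0.61. Cdkn1a (p21), an inhibitor of the cycle, was above 0 in 44 of 49 and 18 of 30 cells with medians of 123 and 1.46 TPM and a ratio of 2.40, 1.44 and 3.03. Gadd45a had a ratio of 2.74, 2.61 and 2.14 and Trp53inp1 one of 3.12, 3.02 and 3.43.

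Genes of antigen presentation on MHC class I, through which T cells recognise tumour cells, showed no common direction (10 above the floor, 4 higher, 1 lower, shift -0.66, -0.08 and 0.29). The shares over all genes were 27.1% higher and 4.19% lower. B2m, the light chain, had a median of 601 TPM (0 to 3256 TPM) against 297 TPM (50.2 to 1223 TPM) and a ratio of 1.16, 0.93 and 0.19 (-0.54 in the last without 1 CHOP-high cell). The heavy chain genes H2-K1 and H2-D1 had ratios of 1.25 and 1.91, which are uncertain because reads of these near-identical genes can be assigned to either. Psmb10, a subunit of the immunoproteasome, had a ratio of -1.39.

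Of the 13 mitochondrial mRNAs all were lower in all cells, 5 at a share of at least 1% and 0 at 20%; mt-Co1 had a median of 40.8 TPM in CHOP-high and 4705 TPM in CHOP-low cells, and of 1508 TPM in CHOP-high cells with a share of at least 1%. This is the difference in share given above, gene by gene. The 33 nuclear genes of the respiratory chain above the floor had 2 higher and 0 lower, with a shift of -0.19, so the difference in mitochondrial RNA was not met by one of like size in the nuclear genes. Of mitochondrial chaperones and proteases (13 above the floor) 4 were higher and 0 lower, a share near that of all genes, with shifts of -0.14, 0.23 and 0.35. Lonp1, a matrix protease known as an ATF4 target, had medians of 28.3 and 5.66 TPM and a ratio of 1.95, 2.13 and 2.10, and Hspa9, the matrix HSP70, had medians of 290 and 77.1 TPM.

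Outside the lists, 3665 genes (49.7%) had a ratio above 0 in each of the 3 library sets and 569 (7.72%) one below 0 in each. The genes with the largest smallest difference over the sets, among those that averaged 20 TPM or more and exceeded 0 in 25% or more of the cells, were Hist1h4h, Lrrc41, Mospd1, Zfp677, Zfp758, Gnpda1, Fuca2, Atp6v1d, Ndrg1 and Pmaip1 on the higher side. Mospd1, an ER membrane protein, had a median of 432 TPM (43.0 to 2065 TPM) against 57.0 TPM (0 to 157 TPM), with 40 of 49 CHOP-high cells above all CHOP-low cells and a ratio of 3.35. Gnpda1, which deaminates glucosamine phosphate, had medians of 160 and 9.17 TPM and a ratio of 3.12. Hist1h4h, a histone gene, had the largest ratio of the 10 (4.86, and 5.59 without 1 CHOP-low cell), but was above 0 in 27 of 49 cells, with a median of 0 among CHOP-high cells with a share of at least 1%.

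On the lower side the 10 genes were mt-Co1, Apoc2, Crip1, Gsta4, Id1, Ifi27l2b, Lgals2, Lgals9, Tk1 and Ucp2. Lgals2, a galectin, had a median of 0.356 TPM (0 to 1465 TPM) against 940 TPM (0 to 5913 TPM) and a ratio of -3.22. Gsta4, a glutathione transferase, had medians of 25.4 and 510 TPM and Id1, an inhibitor of bHLH factors, of 0 and 91.1 TPM. Tk1, the S-phase thymidine kinase, had medians of 0.556 and 45.1 TPM, and 48 of 49 CHOP-high cells were below the CHOP-low median. For these 4 genes the sides overlapped, since some CHOP-low cells were at or near 0. Among CHOP-high cells with a share of at least 1% the medians of Lgals2, Gsta4 and Id1 were 154, 75.6 and 0 TPM. Their ratios there were -1.79, -1.77 and -4.14, against -3.22, -2.73 and -3.13 in all cells.

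**Figure D5:**
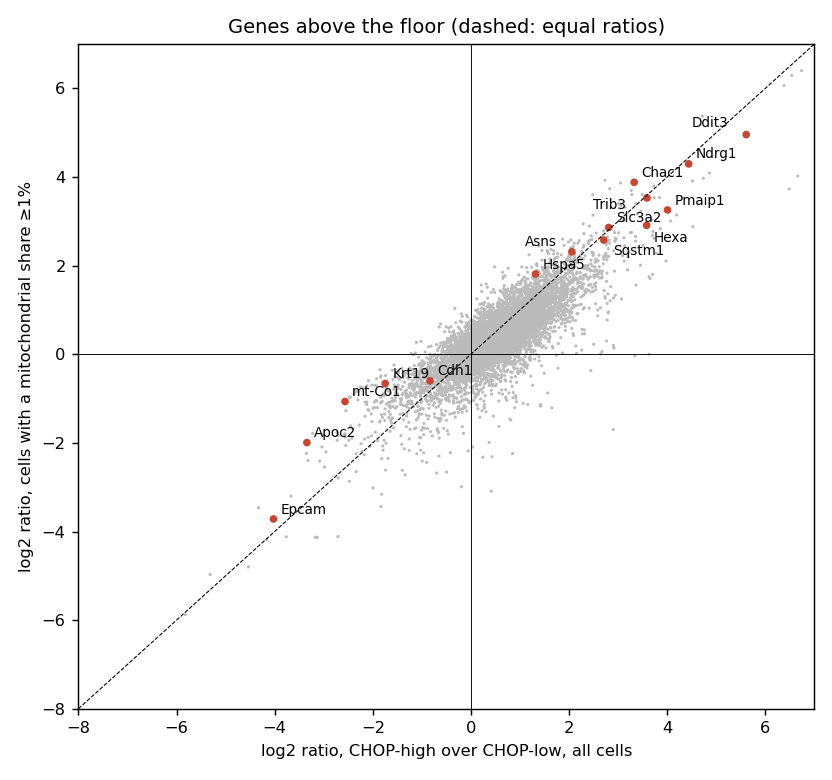
Each point is 1 of 7375 genes, with its log2 ratio of CHOP-high over CHOP-low in all cells on the x axis and in cells with a mitochondrial share of at least 1% on the y axis; named genes are in red and the dashed line marks equal ratios. Chac1, Asns and Hspa5 lie above the line, Hexa and Pmaip1 below it, and Krt19 and mt-Co1 nearer to 0 on the y axis than on the x axis.

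The genes that followed Ddit3 most closely over all 97 Ecad- cells, the 18 between included, were Sqstm1 and Got1 (Spearman correlation 0.72 for both), Mospd1 (0.69), Arl8b (0.67), Ndrg1 and Nupr1 (0.66), and Rnh1, Arpc5l, Ypel5 and Atp6v1e1 (0.65). Arl8b places lysosomes within the cell, and Arpc5l belongs to the actin-branching ARP2/3 complex. The correlations are descriptions across cells of 1 sample that share a library preparation and the mitochondrial share. Among the 57 cells with a share of at least 1% that of Sqstm1 was 0.77 and that of Slc3a2 0.74.

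In the Ecad+ fraction the same thresholds gave 3 CHOP-high and 95 CHOP-low cells. The 95 cells had a median mitochondrial share of 30.5%, close to the 28.1% of CHOP-low Ecad- cells, and 0 of them had a share under 1%. Their effector level per cell had a median of 2.39 against 2.19 in CHOP-low and 4.96 in CHOP-high Ecad- cells. The 3 CHOP-high Ecad+ cells had shares of 0.269%, 7.07% and 26.8%. Their effector levels were 4.96, 5.11 and 6.08 and their epithelial levels 4.27, 5.83 and 5.96, each set in ascending order and not cell by cell.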

How the data were processed

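Single cells of 1 line were sorted by E-cadherin and sequenced after full-length cDNA amplification on a microfluidic chip. Per the submitters' processing notes, FastQC 0.11.5 and kallisto were used with build mm10; no source used here gives the kallisto version, transcript index or cell filters. The deposited values are log2(TPM + 1) per gene. Each was turned back into TPM. TPM keeps no depth, the library kit does not mark strand, and no molecular identifiers were used, so gene copies and overlapping genes may share reads.

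Libraries were matched to samples by name. In 5 pairs of libraries the correlation was above 0.97, and each pair was averaged as 1 cell. Ecad- cells were split by Ddit3, and log2 ratios of mean TPM with a pseudocount of 1 were computed with Python 3.11.15, numpy 2.4.6, pandas 2.3.3 and scipy 1.17.1. The computation was tested on simulated data. No test was made, because each sorted fraction was treated as 1 sample; no source used here says whether cells came from separate cultures.

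The members and the gene lists were chosen with earlier results of these data known. Named genes were a set of stress, lineage and cell cycle genes, per list the 4 or fewer members whose ratio was farthest from 0, and 10 genes in each direction ranked by their smallest ratio over the library sets, at an average of 20 TPM or more and above 0 in 25% or more of cells. Hsp90b1, Calr, Krt18, Ptprc and Tyrobp fall outside that rule and were chosen after their values were seen. Alternatives changed the mean, pseudocount, floor, scaling, thresholds, library sets and share of mitochondrial RNA, and left out each cell in turn. The authors' deposited fold changes and p-values between Ecad- and Ecad+ were not used.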

Additional observations from a re-analysis of the deposited data

How the results depend on the processing

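No paired analysis was possible because both sides lie within 1 sorted group, whose replicate numbers only name its cells, and the comparison comes from no test. With the library sets weighted equally, all 81 named genes past 2-fold kept their direction. Ddit3, which made the split, is among them. Many others were named for large ratios in these same cells or for the same direction in each library set. Kept directions, here and under the other alternatives, are therefore partly set by that choice and are not independent evidence. These 81 also kept their direction under each alternative that gave them a value, except Atf3 (-0.052), Fnip1 (-0.42) and Krt19 (0.17) at a mitochondrial share of at least 20%, where 68 stayed past 2-fold, and Krt19 (0.26) and Ucp2 (1.24) at that share within set 1. The first, Atf3, was 0.63 without 1 CHOP-low cell. The cause of the changes below was not tested.

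Against 2001 genes higher, the count was 869 with a pseudocount of 10, 1021 after rescaling, 934 after rescaling at a share of at least 1%, 600 with a floor of 50 TPM, 3028 with no floor, 1141 with 1 split at 7 and 1199 with shares of 1% to 20% and of at least 20% weighted equally. Against 309 lower, it was 147, 564 after rescaling, 77 and 661 with those floors, and 499 without library set 1.

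The effector list (2.15) stood at 1.30 with a pseudocount of 10 and 1.26 with the split at 7. Vacuolar proton pump genes (1.43) stood at 1.84 with no floor, 1.76 with thresholds of 5 and 9, 0.76 with the split at 7, 1.00 at a share of at least 1%, 1.01 there after rescaling, 0.64 there in set 1, 1.03 with these shares weighted equally, 0.52 at 20% and 0.76 at 20% in set 1. Cholesterol genes (-1.28) stood at -1.58 on means of log2 values, -0.86 with a pseudocount of 10, -0.87 with no floor, -1.46 without set 1, -0.92 at a share of at least 1%, -0.84 there after rescaling, -0.99 there in set 1, -0.97 with these shares weighted equally, -0.30 at 20% and -0.54 at 20% in set 1. Epithelial genes (-1.38) stood at -0.30 at 20% and -0.21 there in set 1. The difference of the median mitochondrial share (-27.9 points) was -35.6 with thresholds of 5 and 9 and -6.15 without mt-Atp8.

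List medians that changed sign were MAPK feedback (-0.64 to 0.19) and MHC class I (-0.66 to 0.12) with a floor of 50 TPM, MHC class I at 20% (0.29) and there in set 1 (0.080), NF-kB and chemokines (0.68) on means of log2 values (-0.23) and without set 1 (-0.35), and nuclear long RNAs (0.82) at 20% (-0.24), there in set 1 (-0.32) and in set 1 at 1% (-0.077). Comparisons at a share under 1%, or with the classes under and over 1% weighted equally, were not run, since no CHOP-low cell was under 1%. Weights over 1% to 20% and over 20% were chosen after seeing the data.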

Other observations

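Genes of hypoxia and some of oxidative stress were higher in CHOP-high cells. Of 14 hypoxia genes above the floor 7 were higher and 1 lower, with the list median 0.39 above that of all genes, 0.58 at a mitochondrial share of at least 1% and 1.15 at 20%. Bnip3, a mitophagy receptor, had medians of 58.4 and 4.56 TPM and a log2 ratio of 2.42, 2.89 and 3.64 in the same order (3.15 and 3.63 in the first pair without 1 CHOP-low cell). Vegfa, the angiogenic factor, had medians of 44.0 and 5.73 TPM and a ratio of 1.36, 1.58 and 2.53. Of 25 oxidative stress genes 7 were higher and 0 lower, with the list median 0.35 below that of all genes, and the count is near the 27.1% of all genes called higher. Among the 7, Hmox1, which degrades haem, was above 0 in 43 of 49 CHOP-high and 7 of 30 CHOP-low cells (ratio 2.93, and 3.57 without 1 CHOP-low cell), and Fth1, the ferritin heavy chain, had medians of 8143 and 2608 TPM (ratio 1.87, and 1.37 at a share of at least 20%).

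Chemokine genes had large ratios that rested on few cells. Cxcl10, an interferon-induced chemokine, was above 0 in 8 CHOP-high and 4 CHOP-low cells with medians of 0 on both sides; 1 CHOP-high cell reached 13487 TPM, beside a mean of 298 TPM over the 49 cells and a ratio of 5.86, which was 2.22 without that cell. Ccl20 was above 0 in 7 and 4 cells with a ratio of 2.73, which was 1.89 to 3.81 when 1 cell was left out. On means of log2 values the differences were 0.54 and 0.40, and the ratios in set 3 were -3.75 and -0.75, or 0.013 and 1.58 without 1 CHOP-low cell each. Of 18 AP-1 and immediate early genes 5 were higher and 3 lower, and 3 higher and 5 lower at a share of at least 1%, with shifts of 0.13 and -0.54. Over all genes 27.1% were higher and 4.19% lower, and 18.5% and 3.99% at that share. The counts of higher genes in the list are thus near those of all genes. Among the lower genes Fos, an immediate early gene of the AP-1 family, had medians of 0.453 TPM in CHOP-high and 31.7 TPM in CHOP-low cells, with a ratio of -1.84.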
